A study of Bos taurus with 25 samples.

Results

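The folate cycle enzymes carry single carbon units on tetrahydrofolate and pass them to purines, thymidylate and methionine. The set examined held 8 genes, MTHFD1, MTHFD2, MTHFD1L, SHMT1, SHMT2, TYMS, FTCD and ALDH1L1, and its members were all the probes of the array whose name is paired with 1 of these symbols. Of the 43653 different probes on the array, 15 met this rule, and they stood for 7 of the 8 genes. FTCD, which joins the breakdown of histidine to the folate pool, was not analysed here.

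The arrays measured total RNA of hepatic tissue from 12 cows and of mammary tissue from 13 cows, and 12 cows gave both tissues. All animals were multiparous Holstein cows in lactation, and the biopsies were taken 64 ± 3 days after calving. Control cows received saline as a weekly injection of 5 mL into the muscle, which yielded 3 arrays per tissue. The B9 cows received 320 mg of folic acid, also with 3 arrays per tissue. The B12 cows received 10 mg of cyanocobalamin and gave 4 arrays of each tissue, while the B9 + B12 cows received both vitamins (2 arrays of liver, 3 of mammary tissue). RNA of different cows was never pooled, so that the spread between arrays includes the spread between animals, and the small number of cows limits the precision of every value. A biopsy holds all cell types of the tissue, and a smaller number of cells of a type cannot be told apart from less RNA per cell.

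The tissue labels were checked against defining transcripts. All 8 hepatocyte markers tested, such as albumin (ALB) and fibrinogen (FGB), were higher in the liver, and all 7 markers of mammary secretory epithelium, such as the casein gene CSN3 and alpha-lactalbumin (LALBA), were higher in the mammary gland. The share of probes well above background was 71.2 to 84.2% on the liver arrays and 64.5 to 76.5% on the mammary arrays. The liver arrays of cow 57 (B9) and cow 32 (B9 + B12) stood apart, with a median correlation of 0.971 with the other liver arrays, and values without them are given where they bear on a result. Among the liver arrays, that of cow 32 had the lowest share of probes well above background (71.2%). It also had the lowest ratio of median signal to median background (2.24), and it was scanned on the second of 2 days.

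Folate metabolism runs in the cytosol and in the mitochondria, with sister enzymes in each compartment. Serine hydroxymethyltransferases (SHMT1 in the cytosol, SHMT2 in mitochondria) take a carbon unit from serine. In the cytosol the trifunctional enzyme MTHFD1 interconverts the methylene, methenyl and formyl forms of the cofactor, ALDH1L1 oxidizes the formyl group to carbon dioxide, and thymidylate synthase (TYMS) spends the methylene form on DNA synthesis. In mitochondria MTHFD2 oxidizes the methylene form and MTHFD1L releases formate to the cytosol. The liver is known as the main store of folate and as a tissue in which serine, glycine and histidine are broken down, and the lactating mammary gland is known for its high rate of protein synthesis.

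The first comparison asked how the tissues differ in these enzymes. Of the 7 genes, 4 were higher in the liver (SHMT1, MTHFD1, ALDH1L1 and SHMT2), 1 was higher in the mammary gland (MTHFD2), and 2 did not pass the threshold in either direction (TYMS and MTHFD1L). The largest difference among them was 219-fold, for the cytosolic serine hydroxymethyltransferase SHMT1. A gene was counted when the adjusted p of its brightest probe was at most 0.05 (limma, Benjamini-Hochberg over all probes) and the difference was at least 2-fold. Of all probes, 9.11% passed as higher in the liver and 10.4% as lower (19.5% in either direction), and the median difference, liver minus mammary gland, was 1.14 on the log2 scale over the 7 genes and -0.025 over all probes. All levels in this comparison are log2 intensities after the arrays of both tissues were normalized together, and they compare tissues for a probe, not probes with each other.

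**Figure D1:**
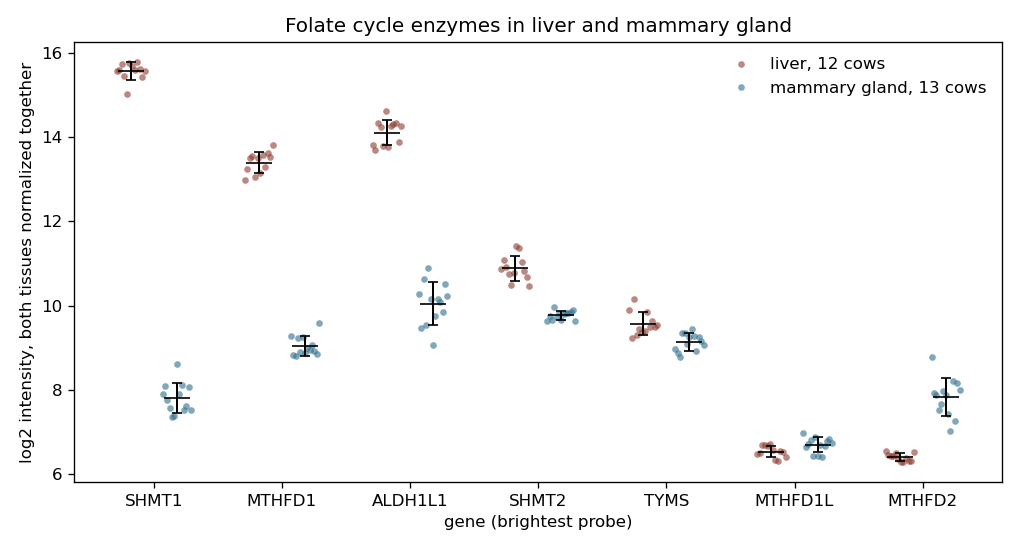
Log2 intensity of the brightest probe of each of 7 folate cycle enzymes (x axis) in 12 liver arrays (red) and 13 mammary arrays (blue), with 1 point for each array, the mean as a horizontal line and 1 SD as the bar. For SHMT1, MTHFD1, ALDH1L1 and SHMT2 every liver array lies above every mammary array, for MTHFD2 every mammary array lies above every liver array, and for TYMS and MTHFD1L the tissues overlap.

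SHMT1 had a log2 intensity of 15.57 ± 0.20 in the liver (SD, n = 12) and of 7.80 ± 0.36 in the mammary gland (SD, n = 13). The lowest, median and highest liver arrays had 15.03, 15.59 and 15.77, and the lowest, median and highest mammary arrays had 7.36, 7.77 and 8.60. The lowest liver array thus lay far above the highest mammary array. The fitted difference was 7.78 (SE 0.13, adjusted p = 7.25e-21, limma), and the difference within a cow ran from 7.09 in cow 57 to 8.40 in cow 41. The other SHMT1 probes gave 143-fold and 103-fold, with 9 and 12 of the 13 mammary arrays well above background.

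MTHFD1 and ALDH1L1, cytosolic enzymes that handle the formyl group, were the next in size. MTHFD1 had a median of 13.51 in hepatic tissue (lowest 12.97, highest 13.81) and of 8.95 in mammary tissue (lowest 8.81, highest 9.60), a difference of 4.36 (SE 0.098, 20.6-fold, adjusted p = 8.07e-19, limma). Its other probe gave a difference of 4.11. ALDH1L1 had a median of 14.25 in hepatic tissue (lowest 13.69, highest 14.62) and of 10.15 in mammary tissue (lowest 9.07, highest 10.88), a difference of 4.07 (SE 0.18, 16.8-fold, adjusted p = 9.38e-14, limma). For both genes every liver array lay above every mammary array.

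The ALDH1L1 probes disagreed in the mammary gland. The brightest probe was well above background on all 13 mammary arrays, whereas the other probes were well above background on 0 of 13. Against the dim limit of the mammary arrays these 2 probes were at least 11.8-fold and at least 41.7-fold higher in the liver, where all 12 arrays measured them. The direction was the same by all 3 probes, but every mammary value of ALDH1L1, its treatment estimates included, rests on the brightest probe alone. The target of that probe was not checked here, so that its signal in the mammary gland, and with it the 16.8-fold, may not be that of the transcript the other probes measure.

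Among the mitochondrial enzymes, SHMT2 was higher in the liver and MTHFD2 was lower. SHMT2 had a median of 10.85 in hepatic tissue (lowest 10.46, highest 11.42) and of 9.79 in mammary tissue (lowest 9.63, highest 9.96), and the difference of 1.14 (SE 0.083, 2.20-fold, adjusted p = 2.08e-10, limma) was far smaller than that of SHMT1. Its other probes gave 1.19 and 0.91, the latter under 2-fold, and the brightest probe gave 0.80 once slides entered the fit as a fixed block and no longer reached 2-fold. The tissues still did not overlap by the brightest probe.

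MTHFD2 was the only one of the 7 genes counted as higher in the mammary gland. Its liver arrays ranged from 6.29 to 6.54 (median 6.41) and its mammary arrays from 7.03 to 8.77 (median 7.87), with a difference of -1.42 (SE 0.14, adjusted p = 2.04e-08, limma), which is 2.67-fold higher in the mammary gland. All 12 cows showed this direction. The liver values lay close together and near the low end of the scale, and the size of the difference changed with the background step and with the scaling. It was -1.92 with an offset of 16 in place of 50 and -1.93 with the 75th percentile in place of quantiles, under which the median of all probes was -0.80. With the processed signal of the image software over its 75th percentile, which changes both steps together, it was -3.15, where the median of all probes was -0.48.

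TYMS and MTHFD1L differed less between the tissues. TYMS had a median of 9.49 in hepatic tissue (lowest 9.24, highest 10.17) and of 9.17 in mammary tissue (lowest 8.78, highest 9.44), and the difference of 0.42 (SE 0.099, 1.34-fold, adjusted p = 0.000942, limma) was under 2-fold. It was higher in the liver in 11 of 12 cows. MTHFD1L had a median of 6.54 in hepatic tissue (lowest 6.32, highest 6.72) and of 6.72 in mammary tissue (lowest 6.41, highest 6.98), with a difference of -0.17 (SE 0.054, adjusted p = 0.00959, limma). Its second probe gave -0.094 (adjusted p = 0.144, limma) and was well above background on 5 of 12 liver and 6 of 13 mammary arrays.

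Within the 12 cows with both tissues, the direction was shared by all 12 cows for SHMT1, MTHFD1, ALDH1L1, SHMT2 and MTHFD2 (exact sign-flip permutation test over cows, two-sided, p = 0.000488 for each, the smallest p that 12 cows allow). The same exact permutation test gave p = 0.000977 for TYMS and p = 0.0244 for MTHFD1L, which was higher in the liver of 2 of 12 cows.

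The enzymes of the cytosol were then set against their mitochondrial sisters within each cow, a comparison chosen after the values were seen. The tissue difference of SHMT1 exceeded that of SHMT2 by 6.66 ± 0.61 on the log2 scale (SD, n = 12 cows), with a range of 5.34 to 7.46. The tissue difference of MTHFD1 exceeded that of MTHFD2 by 5.81 ± 0.35 and that of MTHFD1L by 4.51 ± 0.31. In all 3 pairs the excess had the same sign in 12 of 12 cows. These values are a description, since the ranges over cows of the paired genes did not overlap when the pairs were chosen.

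**Figure D2:**
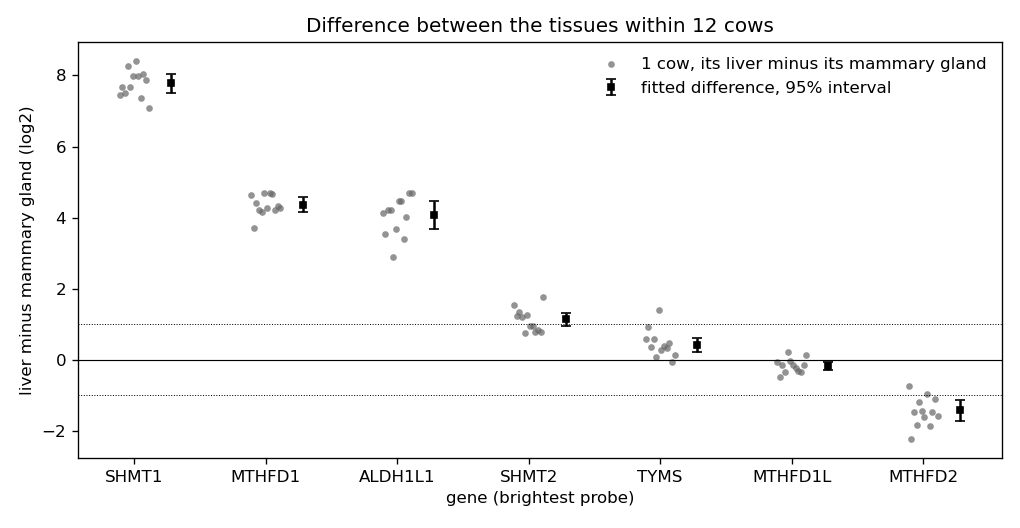
Difference between the liver and the mammary gland of the same cow (y axis, log2) for each of 7 folate cycle enzymes (x axis), with 1 grey point for each of 12 cows, the fitted difference as a square with its 95% interval, and dotted lines at a 2-fold difference. The cows lie between -0.49 and 0.23 for MTHFD1L, between 7.09 and 8.40 for SHMT1, and below 0 in every case for MTHFD2.

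Liver and mammary arrays shared 4 of the 8 slides. Each of these held 1 liver array and 2 or 3 mammary arrays of other cows, mostly of another treatment. Within these slides the difference ranged from 7.39 to 7.69 for SHMT1, from 3.79 to 4.67 for MTHFD1, from 3.56 to 5.34 for ALDH1L1 and from 0.76 to 1.06 for SHMT2. It ranged from -1.88 to -0.92 for MTHFD2, from -0.038 to 0.62 for TYMS and from -0.26 to 0.18 for MTHFD1L. The 5 genes past the threshold thus kept their direction within every shared slide, while TYMS and MTHFD1L did not.

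The scaling of the arrays moved the whole distribution. When arrays were scaled by their 75th percentile, without quantiles, this shifted the median difference of all probes to -0.80, and of the probes past the threshold 19.3% were then higher in the liver, against 46.7% with quantiles. Relative to that median, SHMT1 was higher in the liver by 8.54, MTHFD1 by 5.38, ALDH1L1 by 5.22, SHMT2 by 2.14 and TYMS by 1.26, MTHFD1L differed by -0.11 and MTHFD2 by -1.13. The direction of each of the 7 genes was the same under all the scalings run.

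The genes around the cycle showed a wider picture of the same tissues. Of 31 other one-carbon genes with a probe, 18 were higher in the liver, 2 were lower and 11 did not pass the threshold, with a median difference of 1.19. Large differences belonged to enzymes known from hepatic methyl-group and amino acid metabolism, betaine-homocysteine methyltransferase (BHMT, with a fitted 8.25 on the log2 scale whose size is uncertain, as only 3 of 13 mammary arrays were well above background), methionine adenosyltransferase (MAT1A, 7.37) and glycine decarboxylase (GLDC, 5.40). HAL and AMDHD1, enzymes of the histidine pathway that leads to FTCD, were also higher in the liver. HAL was well above background on 0 of 13 mammary arrays, which makes it at least 58.3-fold higher, and AMDHD1 differed by 5.32.

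The folate handling genes past the threshold were all higher in the liver, while serine synthesis was mixed. FOLH1 lay the other way without passing the threshold (-0.76). The folate carriers SLC19A1 (1.62) and SLC46A1 (1.19), the folate receptor FOLR2 (1.38) and gamma-glutamyl hydrolase GGH (3.09) were higher in the liver. AHCY (4.52), GCSH (2.57), MTHFS (2.24), SARDH (2.23), PHGDH (1.94), AMT (1.70), CBS (1.63) and MTFMT (1.08) were also higher there. PSPH, which completes serine synthesis (-1.45), and DUT, which supplies the substrate of TYMS (-1.24), were lower in the liver. PSPH ranged over the cows from -2.97 in cow 38 to 1.18 in cow 32 and was lower in the liver of 11 of 12 cows. DUT was lower in all 12 cows but fell under 2-fold with the 75th percentile in place of quantiles (-0.77, where the median of all probes was -0.80), with the processed signal (-0.94) and with the mean of all its probes (-0.996).

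**Figure D3:**
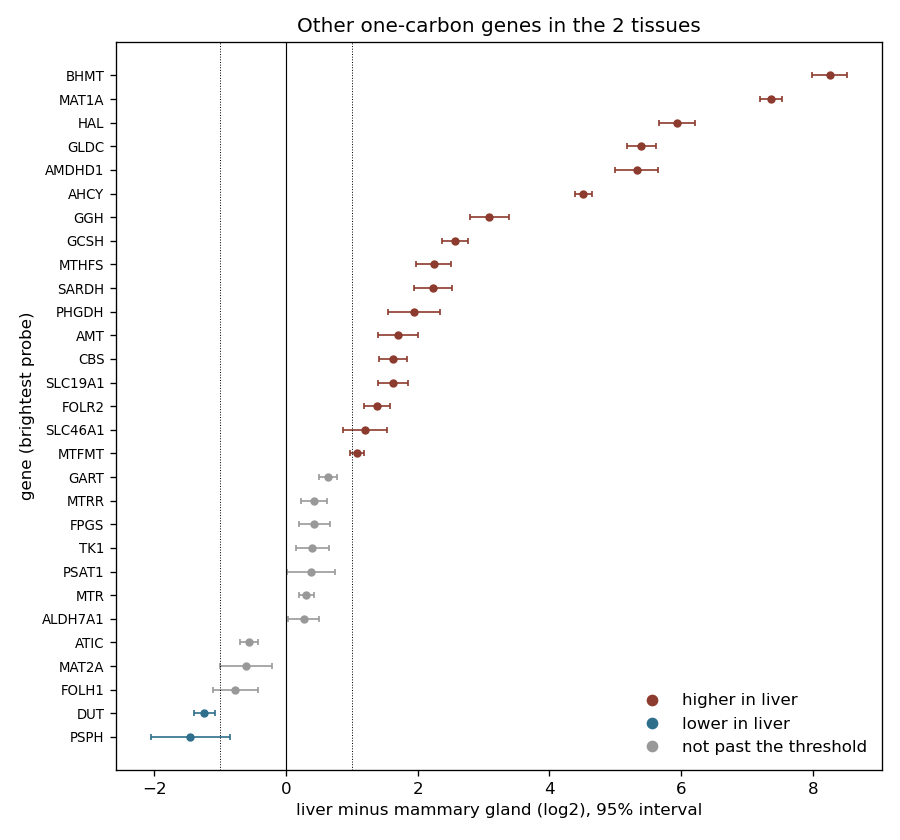
Difference between the liver and the mammary gland (x axis, log2, with its 95% interval) for the brightest probe of each of 29 other one-carbon genes (y axis), with dotted lines at a 2-fold difference. Red points were higher in the liver (17 genes), blue points were lower (2 genes, PSPH and DUT) and grey points did not pass the threshold. The point of HAL is the fitted value, although its mammary level is only a limit (0 of 13 arrays well above background).

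Markers of other cells were measured beside these levels. The mean log2 intensity of the 8 hepatocyte markers lay between 16.70 and 17.04 on the liver arrays and between 7.80 and 9.79 on the mammary arrays, with its highest mammary value in cow 57, whose mammary array also had the highest SHMT1 (8.60). Of the lists of other cell types, 4 of 5 fibroblast markers and 1 of 3 adipocyte markers were lower in the liver, 2 of 5 leukocyte markers were higher, and 0 of 5 markers of dividing cells, 0 of 3 of endothelium and 0 of 3 of red blood cells passed the threshold. The part of these cells in the tissue differences was not tested.

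The second comparison asked whether the vitamins changed the expression of the enzymes within a tissue. No change passed the threshold. In each of the 6 comparisons of a treatment with the control group, 0 of 7 genes were counted by limma, and 0 of 7 by Cyber-T (Benjamini-Hochberg, adjusted p at most 0.05 and at least 2-fold). Of all probes, 0.00229% passed by limma after B12 in the liver and 0% in each of the other 5 comparisons. By Cyber-T, 0.0115%, 0.11% and 0.0596% of all probes passed after B9, B12 and B9 + B12 in the liver, and 0.0275%, 0.0275% and 0.0229% in the mammary gland. At an unadjusted p of at most 0.05, limma gave 1 of 7 genes after B9 in the liver (3.42% of all probes) and 1 of 7 after B9 + B12 in the liver (5.98% of all probes), and 0 of 7 after B12 in the liver (1.99%) and after B9 (2.61%), B12 (2.25%) and B9 + B12 (1.97%) in the mammary gland. Cyber-T gave 1 of 7 after B9 + B12 in the liver, which was SHMT2 (6.31% of all probes by Cyber-T), and 0 of 7 after B9 (4.22%) and B12 (4.35%) in the liver and after B9 (3.46%), B12 (3.61%) and B9 + B12 (3.47%) in the mammary gland. Levels in these comparisons are the log2 values of the authors' table, normalized within each tissue, and are not comparable with those above. Groups that did not overlap were counted for 1 of 7 genes after B9 (8.44% of all probes), 0 of 7 after B12 (4.96%) and 2 of 7 after B9 + B12 (21.8%) in the liver, and for 0 of 7 after B9 (7%), 0 of 7 after B12 (3.86%) and 1 of 7 after B9 + B12 (6.89%) in the mammary gland.

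**Figure D4:**
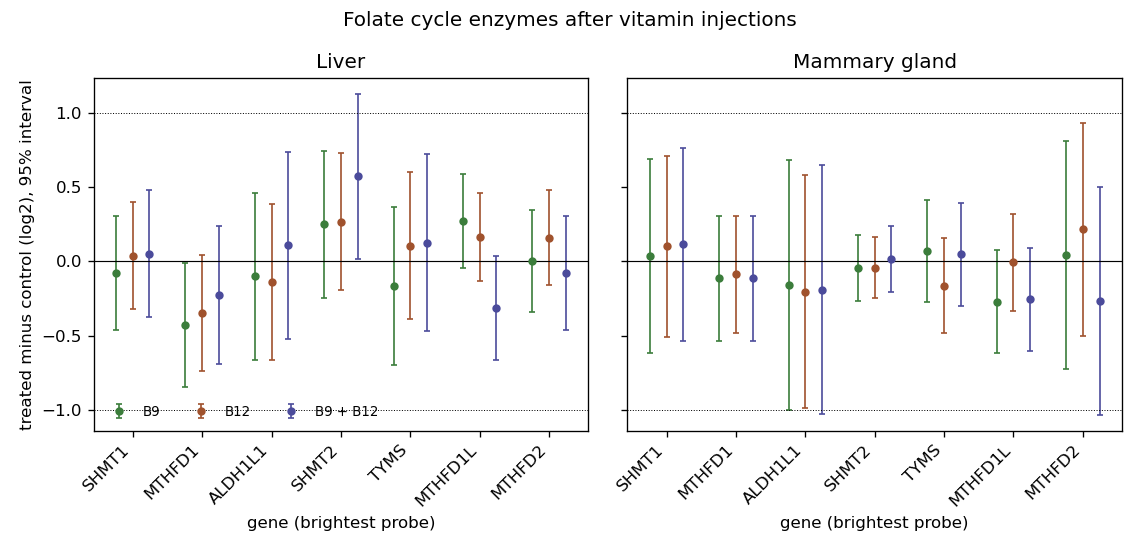
Difference between treated and control cows (y axis, log2) for the brightest probe of each of 7 folate cycle enzymes (x axis), with a panel for each tissue, after B9, B12 or B9 + B12, with 95% intervals and dotted lines at a 2-fold change. The estimates lie between -0.43 and 0.57 in hepatic tissue and between -0.27 and 0.22 in mammary tissue, and all but 1 liver interval and 2 mammary intervals stay inside 2-fold.

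The fitted intervals give the range of changes compatible with the values of each gene, without adjustment over all probes. They are not limits of detection, since a change was counted only past the adjusted p and at 2-fold or more. In the liver, 20 of the 21 intervals (7 genes, 3 treatments) lay inside a 2-fold change, the exception being SHMT2 after B9 + B12, whose interval reached 2.18-fold. In the mammary gland 19 of 21 did so, with exceptions for MTHFD2 and ALDH1L1 after B9 + B12. The tightest intervals were those of SHMT2 in the mammary gland, whose spread within groups was 0.11 on the log2 scale against a median of 0.17 over all probes, and its largest bound over the 3 treatments was 0.27.

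The MTHFD1 estimates in the liver were negative for all 3 treatments, which share the control arrays. The control cows had 14.20, 14.32 and 14.51, and the B9 cows had 13.72, 13.81 and 14.21, so that the groups overlapped by 1 array. The difference after B9 was -0.43 (SE 0.19, unadjusted p = 0.0446, adjusted p = 0.891, limma), and an exact permutation test gave p = 0.2, where the smallest p that 3 against 3 allows is 0.1. Under scaling by the 75th percentile it was -0.24, and without cow 57 it was -0.38 (unadjusted p = 0.108, limma). Without that cow the gene with an unadjusted p of at most 0.05 after B9 was MTHFD1L (0.35, unadjusted p = 0.0477, limma). The differences after B12 and after B9 + B12 were -0.35 and -0.23, neither with an unadjusted p of at most 0.05, and the latter ran from -0.38 without cow 32 to -0.075 without cow 38. The second MTHFD1 probe gave -0.36, -0.34 and -0.50 after the same treatments. Over the 12 liver arrays MTHFD1 had r = -0.662 with the mean of the 7 mammary secretory epithelium markers (permutation p = 0.0187, adjusted p = 0.279). Spearman's rho was -0.692 (permutation p = 0.0159, adjusted p = 0.594). Without the B12 cows 36 and 37, which had the highest means (9.76 and 9.52), r was -0.454. The part of this signal in the MTHFD1 values was not tested.

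The SHMT2 estimates in the liver were 0.25 after B9 and 0.27 after B12, neither with an unadjusted p of at most 0.05, and the B9 value rested on cow 57, without which it turned to -0.026. After B9 + B12 the groups did not overlap. The control cows had 10.99, 11.23 and 11.38, and the B9 + B12 cows had 11.61 (cow 38) and 11.94 (cow 32). Non-overlap is common with 2 arrays against 3, and 21.8% of all probes showed it in this comparison. The difference was 0.57 (SE 0.25, unadjusted p = 0.0437, adjusted p = 0.664, limma), and the exact permutation test gave p = 0.1, the smallest this design allows. The other SHMT2 probes gave 0.39 and 0.38, and by the last of these the groups were apart after B9 alone (0.63, unadjusted p = 0.0364, adjusted p = 0.891, limma). Without cow 57 that probe gave 0.33 (unadjusted p = 0.164, limma). Without the array of cow 32 the difference after B9 + B12 by the brightest probe was 0.41, from 1 remaining array.

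The 2 liver arrays with the highest SHMT2 were those that stood apart, cow 57 (12.00) and cow 32 (11.94). The same arrays had the highest mean of the 5 leukocyte markers, 11.08 in cow 57 and 11.46 in cow 32, where the other liver arrays ranged from 10.25 to 10.79. Over the 12 liver arrays Pearson's r between SHMT2 and this mean was 0.756 (permutation p = 0.00402, adjusted p = 0.225) and Spearman's rho was 0.503 (permutation p = 0.0997, adjusted p = 0.657). Without these 2 arrays r was 0.340, so that the relation rests on them. The same arrays also had the highest mean of the 3 endothelium markers, 9.34 in cow 57 and 9.69 in cow 32. With that mean SHMT2 had r = 0.610 (permutation p = 0.0346, adjusted p = 0.335), and 0.0039 without these arrays. Whether leukocytes or endothelium had a part in the SHMT2 values was not tested.

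TYMS values after B9 lay below all control values in the liver, by small amounts. The control cows had 9.94, 10.00 and 10.10, and the B9 cows had 9.81, 9.83 and 9.89. The difference was -0.17 (SE 0.24, unadjusted p = 0.503, adjusted p = 0.912, limma; -0.056 with slides as a fixed block), with p = 0.1 by an exact permutation test, and 8.44% of all probes showed groups that did not overlap. The spread of TYMS was larger in the B12 group, whose cows had 9.67, 9.74, 10.38 and 10.68, than the difference between any treatment and control.

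TYMS supplies thymidylate for DNA replication, and its liver values were set beside the markers of dividing cells (CDK1, CCNB1, CCNB2, PCNA and TK1, the last also among the 31 one-carbon genes). Over the 12 liver arrays, Pearson's r with the mean of these 5 markers was 0.835 (permutation p = 0.00153, adjusted p = 0.171) and Spearman's rho was 0.517 (permutation p = 0.0889, adjusted p = 0.657). Both were highest in cow 40, with TYMS at 10.17 and the markers at 8.37 on the joint scale, followed by cow 36. Without these 2 arrays r was 0.554, and on the 9 liver arrays of the first scan day it was 0.915. The adjusted p covers 112 relations of 7 genes with 8 marker lists in both tissues, of which 0 reached an adjusted p of 0.05.

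**Figure D5:**
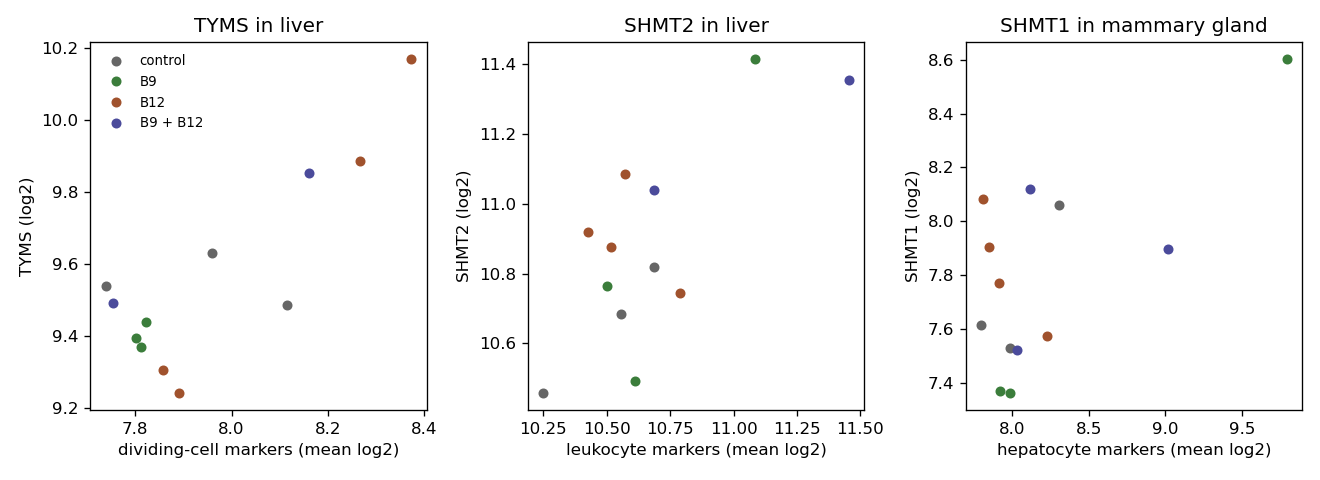
Log2 intensity of TYMS and SHMT2 in 12 liver arrays and of SHMT1 in 13 mammary arrays (y axes) against the mean log2 intensity of the markers of dividing cells, leukocytes and hepatocytes (x axes), with 1 point for each array coloured by treatment. The 2 arrays with the most leukocyte signal also have the highest SHMT2, and the mammary array with the most hepatocyte signal (9.79) has the highest SHMT1 (8.60).

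SHMT1 in the mammary gland had r = 0.655 with the mean of the 8 hepatocyte markers over 13 arrays (permutation p = 0.0214, adjusted p = 0.279) and a Spearman's rho of 0.242 (permutation p = 0.426, adjusted p = 0.888). Without cows 57 and 31, the 2 arrays farthest from the median of the markers, r was 0.145. The relation rests on those arrays. Relations not plotted include liver ALDH1L1 with the 3 red blood cell markers (r = -0.716, permutation p = 0.00958, adjusted p = 0.279, Spearman's rho = -0.601). Without cows 41 and 52 its r was -0.583. Liver MTHFD2 with the 3 endothelium markers had r = -0.661 (permutation p = 0.0137, adjusted p = 0.279, Spearman's rho = -0.769), and -0.467 without cows 32 and 57.

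MTHFD1L had the smallest unadjusted p among the 7 genes, for the interaction of B9 with B12 in the liver. The control cows had 5.89, 6.10 and 6.18, the B9 cows 6.18, 6.35 and 6.46, and the B12 cows 6.05, 6.06, 6.39 and 6.39. The B9 + B12 cows, with 5.72 and 5.77, lay below every other liver array. The interaction was -0.75 (SE 0.21, unadjusted p = 0.00422, adjusted p = 1.00, limma), and at an unadjusted p of at most 0.05 it was 1 of 7 genes, where 3.86% of all probes passed. The second MTHFD1L probe gave -0.14 (SE 0.26), scaling by the 75th percentile gave -0.18, and the processed signal over its 75th percentile gave -1.19. The difference of B9 + B12 from control in the liver was -0.31 (SE 0.16, unadjusted p = 0.0767, adjusted p = 0.664, limma, and exact permutation p = 0.2). It turned to 0.063 with the 75th percentile in place of quantiles, where the shift of all probes was not examined.

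The MTHFD1L estimates in the mammary gland were also negative after B9 + B12. The control cows had 5.77, 5.82 and 5.88, and the B9 + B12 cows had 5.33, 5.67 and 5.70, which did not overlap (6.89% of all probes), with a difference of -0.26 (SE 0.16, unadjusted p = 0.135, adjusted p = 1.00, limma; exact permutation p = 0.1). The second MTHFD1L probe gave 0.17 in the same comparison, and the mean of both probes gave -0.040. The B9 cows had 5.36, 5.38 and 5.92 and overlapped the control cows. With both factors in the fit, any B9 against no B9 gave -0.26 (SE 0.11, unadjusted p = 0.0344, adjusted p = 1.00, limma), where 3.48% of all probes reached an unadjusted p of at most 0.05. The second probe gave 0.032 for any B9, and the processed signal gave -0.55 with the brightest probe. No other gene of the 7 reached that p in the factorial comparisons, and 0 of 7 were counted for B9, for B12 or for the interaction in either tissue (0% of all probes). The shares of all probes at an unadjusted p of at most 0.05 in the comparisons without such a gene were 10.1% for any B9 in the liver, 2.95% and 1.65% for any B12 in hepatic and mammary tissue, and 3.22% for the interaction in the mammary gland.

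SHMT1, ALDH1L1 and MTHFD2 showed no unadjusted p of at most 0.05 in any treatment comparison. SHMT1 in the liver had estimates from -0.077 to 0.053 over the 3 treatments, with no bound beyond 0.48, and in the mammary gland its estimates ran from 0.035 to 0.11. ALDH1L1 gave -0.14 to 0.11 in the liver and -0.20 to -0.16 in the mammary gland, where its spread within groups was 0.54. MTHFD2 gave -0.079 to 0.16 in the liver and -0.27 to 0.22 in the mammary gland, with a spread within groups of 0.49.

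The effects of the treatments were also compared between the tissues. With all 25 arrays in a fit, 0 of 7 genes differed in the effect of B9, B12 or B9 + B12 at the threshold, nor did any probe. At an unadjusted p of at most 0.05, the effect of B9 on MTHFD1L differed by 0.37 (SE 0.15, unadjusted p = 0.0279, adjusted p = 1.00, limma), being 0.15 in hepatic and -0.21 in mammary tissue. That difference was 0.24 with the mean of both MTHFD1L probes and 1.12 with the processed signal. The effect of B9 + B12 on SHMT2 differed by 0.52 (SE 0.25, unadjusted p = 0.0481, adjusted p = 0.837, limma), being 0.54 in hepatic and 0.020 in mammary tissue. Of all probes, 2.35% and 4.23% reached an unadjusted p of at most 0.05 in these comparisons, and 1.82% for the effect of B12, where 0 of 7 genes did.

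The other one-carbon genes were treated alike, and 0 of 31 were counted in any of the 6 treatment comparisons. At an unadjusted p of at most 0.05, GLDC was lower in the liver after B9 (-0.69, adjusted p = 0.891, limma), and without cow 57 the difference was -0.37. After B9 + B12 in the liver FOLR2 was higher (0.66, adjusted p = 0.664) and BHMT lower (-0.88, adjusted p = 0.664), both with groups that did not overlap, by limma. Groups were apart for 6 of the 31 genes in that comparison, 4 higher and 2 lower, where 21.8% of all probes were apart. Without cow 32, which had the highest leukocyte markers, FOLR2 gave 0.54 and BHMT gave -0.71, each from 1 remaining array. In the mammary gland, ATIC, an enzyme of purine synthesis that uses the formyl cofactor, was lower after B9 (-0.41, adjusted p = 1.00) and after B12 (-0.26, adjusted p = 1.00), and SLC19A1 was lower after B9 (-0.29, adjusted p = 1.00), by limma. None of these passed the adjustment.

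Likeness between arrays was described last. Among the 7 genes, Pearson's r over the 12 liver arrays ranged from -0.58 (MTHFD2 with SHMT2) to 0.69 (MTHFD1 with ALDH1L1), and over the 13 mammary arrays from -0.60 (MTHFD2 with TYMS) to 0.52 (MTHFD2 with MTHFD1L). These values describe arrays that share normalization, and no test was made of them. Among 8957 genes of the liver, those most like SHMT2 over the 12 arrays were HOXD4 (r = 0.953), MTA2 (0.931) and SGTA (0.929), and without cows 57 and 32 their r was 0.882, 0.836 and 0.875. Among 8484 genes of the mammary gland, SYBU (r = 0.971) and ATF6B (0.966) were among those most like the brightest ALDH1L1 probe, whose target was not checked, over the 13 arrays.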

How the data were processed

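Total RNA of biopsies was labeled with Cy3 and hybridised to 1-colour Agilent bovine arrays. Per the file headers, the deposited scanner output (Agilent Feature Extraction 10.7.3.1) gives for each spot a median intensity, a background intensity and a processed signal, none normalized between arrays. The authors also deposited a table of log2 values, described in their methods as corrected by normexp and normalized between arrays. When the scanner intensities were taken through normexp (offset 16) and quantiles for each tissue, the median absolute difference from that table was 0.0259 for liver arrays and 0.0348 for mammary arrays, which sets its scale and direction as plain log2 intensity, with column medians from 6.97 to 6.98 and from 6.13 to 6.14.

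The treatments were compared on that table. The tissues were compared on the scanner intensities of all 25 arrays together, after normexp (offset 50) and quantile normalization, since the table was normalized for each tissue separately. Control spots and outlier spots were left out, and spots of a probe were averaged to 43653 probes. Accessions of the array were paired with current symbols through RefSeq names, which gave 11068 genes. No position is given, because the array and these names belong to different genome builds. Each gene is described by its brightest probe.

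In R 4.3.3, limma 3.58.1 was fitted over all probes with all arrays of the tissue (treatments) or all 25 arrays in 8 groups (tissues), with Benjamini-Hochberg adjustment. Exact permutation tests, two-sided, were run on single genes. Correlations with marker lists had 100000 resamples. The members, the other one-carbon genes and the marker lists were chosen with earlier results of these data known. Members with groups that did not overlap or with an unadjusted p of at most 0.05 are given with full statistics. Of these tests only limma was run on simulated data, for B12 against control in each tissue and for the tissue comparison. The simulated probes were independent of each other. For a probe that was well above background on no array of a tissue, the limit is the higher of its own signal and the lowest signal well above background on that array.

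Both tissues of a cow come from the same animal. The deviations of both tissues of a cow from their group means had a correlation between -0.247 and 0.259 (median 0.038), above 0.1 in 4 of 12 cows. The alternatives were other background steps, the processed signal or scanner values scaled by the 75th percentile, a filter on dim probes, outlier spots kept, cow or slide as a block, a mean over the probes of each gene, the groups compared alone, Cyber-T (window 101, confidence 10) and each cow left out. Leaving out the liver arrays of cows 57 and 32, together or singly, the first scan day alone and scan day as a block were added after seeing the data. No columns of the authors' own comparisons were used, and the values of 3 other genes are not reported here.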

Additional observations from a re-analysis of the deposited data

Results flagged for a closer look

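In the liver of the 4 B12 cows, MTHFD2 of cow 36 (6.15 on the log2 scale) stood apart from the others, which lay between 5.93 and 5.97. The gap was 0.833 of the range of the group. The same array had the highest mean of the 7 mammary secretory epithelium markers among the liver arrays (9.76, with a median of 8.05). Over the 12 liver arrays r between MTHFD2 and this mean was 0.295 (permutation p = 0.355, adjusted p = 0.815). Whether mammary transcripts had a part in the MTHFD2 value was not tested. In all, 14 groups of 4 arrays were examined in this way, and chance marks about 1 in 20.

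ALDH1L1 after B9 + B12 lay above the control mean on both liver arrays (a mean difference of 0.11) and below it on all 3 mammary arrays (a mean difference of -0.19). The difference of the effects, tested with all 25 arrays, was 0.33 (SE 0.55, unadjusted p = 0.552, adjusted p = 0.900, limma).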

How the results depend on the processing

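In the tissue comparison, the 5 genes past the threshold stayed past it under all the alternatives run, except SHMT2 with the slide as a fixed block (0.80 on the log2 scale), which left 4 genes in all and 3 higher in the liver. With cow as a random replicate block the count was 5, and with the 12 paired cows and cow as a fixed replicate block it was also 5, so that the pairing changed no call. With cow as a random replicate block the difference was 7.78 for SHMT1 and -1.42 for MTHFD2. With each cow left out in turn the count was 5. The number of other one-carbon genes lower in the liver was 1 (PSPH, without DUT) in place of 2 under the 75th percentile, under the processed signal and under the mean of all probes, and the number higher ranged from 15 to 18.

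In the treatment, factorial and interaction comparisons and in the comparisons of effects between tissues, the count of genes past the threshold was 0 under every alternative that was run, each cow left out included. For MTHFD1L after B9 + B12 in the liver the difference turned from -0.31 to 0.063 on the log2 scale with the 75th percentile in place of quantiles. The cause was not tested, and the shift of all probes in that comparison was not examined. The MTHFD1L differences in the mammary gland, both -0.26 by the brightest probe, were of the opposite sign by the second probe alone, 0.17 after B9 + B12 and 0.032 for any B9. Over all 7 genes and 3 treatments, leaving out 1 array turned the sign of 10 of 21 estimates in the liver and of 15 of 21 in the mammary gland, none of which had passed the threshold. The number of cows per group and, for MTHFD2 and MTHFD1L, intensities near the low end of the scale limit what these arrays can show.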
